A study of Mus musculus with 6 samples.

Results

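Endothelial cells line the blood vessels of the brain and pericytes wrap them, and 9 genes that mark these cells were followed in the suprachiasmatic nucleus (SCN), the seat of the mammalian circadian clock. The genes were Flt1, Kdr, Tek, Pecam1, Cdh5, Cldn5, Slc2a1, Rgs5 and Pdgfrb. They were chosen by gene symbol, with earlier results of the same contrast known, so that the tests of their own values are given as a description. Every probe set that the array's annotation assigns to one of them and to no other gene was taken, which gave 18 of the 22626 probe sets and 9 of the 12393 genes measured. The SCN was captured by laser from frozen brain sections of adult male C57BL/6 mice aged 2 to 4 months. The mice had lived singly with 14 hours of light and 10 of darkness a day for at least 2 weeks. In the light pulse group, light of 2400 lux was given for 30 minutes from 1 hour after lights off, and the sham group had a dark pulse of the same length. Tissue was taken when the pulse ended, which was 1.5 hours into the dark phase. Each group had 3 arrays, named light 1 to 3 and sham 1 to 3 from here on, and each array held RNA pooled from 3 mice, with 6 sections of 12 μm per mouse. The value of a probe set is its signal from the Affymetrix Microarray Suite algorithm (MAS5), in arbitrary units on a linear scale. The question was whether vascular transcripts differed between the SCN after light and after sham.

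Vascular endothelial growth factor acts on endothelial cells through the receptor tyrosine kinases that Flt1 and Kdr encode, and angiopoietins act through the receptor encoded by Tek. Pecam1 and Cdh5 encode adhesion molecules of the contacts between endothelial cells. In the brain these contacts are closed by tight junctions, in which claudin-5, the product of Cldn5, is a main protein of the blood-brain barrier, and glucose crosses the barrier through the transporter encoded by Slc2a1. Pericytes depend on platelet-derived growth factor from the endothelium, which they sense with the receptor encoded by Pdgfrb, and they express Rgs5, a regulator of G protein signalling.

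Promoter sequence was taken from RefSeq for the members of most interest. The reason was that the study looked for a cAMP response element (CRE) and a TATA element in promoters of genes induced by light. None of the 9 genes was among the genes it reported as induced. RefSeq (GRCm38.p6) gave a window for 6 of the 9 genes, namely Rgs5, Tek, Slc2a1, Kdr, Flt1 and Cldn5. The 250 bases before the start are shown 5′ to 3′ for Flt1, which holds the exact letters searched for both elements. They are also shown for Cldn5 and Rgs5, an endothelial and a pericyte gene, in which neither string of letters occurs. Capitals mark the CRE, searched as TGACGTCA, and the TATA element, searched as TATAAA, on both strands. Other forms of the TATA element were not searched, such as the run tatatat in the Rgs5 window.
Flt1, chr5:147726012-147726261, minus strand: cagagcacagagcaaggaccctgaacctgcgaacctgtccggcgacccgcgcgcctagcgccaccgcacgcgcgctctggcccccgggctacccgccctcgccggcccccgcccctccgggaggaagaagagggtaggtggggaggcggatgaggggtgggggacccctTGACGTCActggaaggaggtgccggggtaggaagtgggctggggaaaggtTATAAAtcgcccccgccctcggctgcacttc
Cldn5, chr16:18776597-18776846, plus strand: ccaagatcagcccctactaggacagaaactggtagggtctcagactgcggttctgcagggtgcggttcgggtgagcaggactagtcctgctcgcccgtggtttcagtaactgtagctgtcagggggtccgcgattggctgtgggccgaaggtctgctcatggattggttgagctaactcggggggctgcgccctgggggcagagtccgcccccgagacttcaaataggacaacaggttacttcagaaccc
Rgs5, chr1:169655251-169655500, plus strand: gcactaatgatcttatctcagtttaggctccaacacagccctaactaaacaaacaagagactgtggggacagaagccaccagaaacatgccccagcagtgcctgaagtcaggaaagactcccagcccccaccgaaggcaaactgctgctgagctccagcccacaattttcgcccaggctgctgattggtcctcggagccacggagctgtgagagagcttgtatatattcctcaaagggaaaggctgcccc
Counted backwards from the start, the CRE of Flt1 begins at position -81 and its TATA element at position -31. Over all 27025 windows, 1.62% held this CRE, 13.0% held this TATA element and 0.130% held both. The shorter CRE core TGACG, which also lies within the full CRE, was found in 17.9% of windows and among the 6 genes in Flt1 alone. An E-box, searched as CACGTG, was found in 6.05% of windows and in none of the 6 genes. One form of the core that ETS factors bind, searched as CAGGAA, was found in 25.4% of windows and in those of Tek and Rgs5. Further forms of this core, such as the run aggaagt in the Flt1 window, were not searched. These are matches of letters in a short window of the mouse genome and describe no binding. The study instead counted predicted elements conserved across mammals, in a longer stretch before the start codon. Its criterion was not applied here.

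Transcripts of 5 of the 9 genes were kept by a filter on low signals, and those of 4 were not. The filter kept the 10340 probe sets whose rank 3 signal over the 6 arrays was highest, the lowest of these being 118.2, and it kept the probe set of highest mean signal for 54.3% of all genes. Flt1, Cldn5, Slc2a1, Rgs5 and Pdgfrb had 7 kept probe sets between them, while 11 member probe sets were left out, including all those of Kdr, Tek, Pecam1 and Cdh5. The member probe set just inside the filter was one of Slc2a1, with a rank 3 signal of 272.1, and the one just outside was one of Flt1, with 99.3. The transcripts that define endothelium in general, Pecam1 and Cdh5, thus gave low signals, under 118.2 on all arrays for Pecam1 and on all but 1 for Cdh5. The endothelial part of the gene set therefore rests on Flt1, Cldn5 and Slc2a1, of which Slc2a1 is also known from astrocytes.

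**Figure D1:**
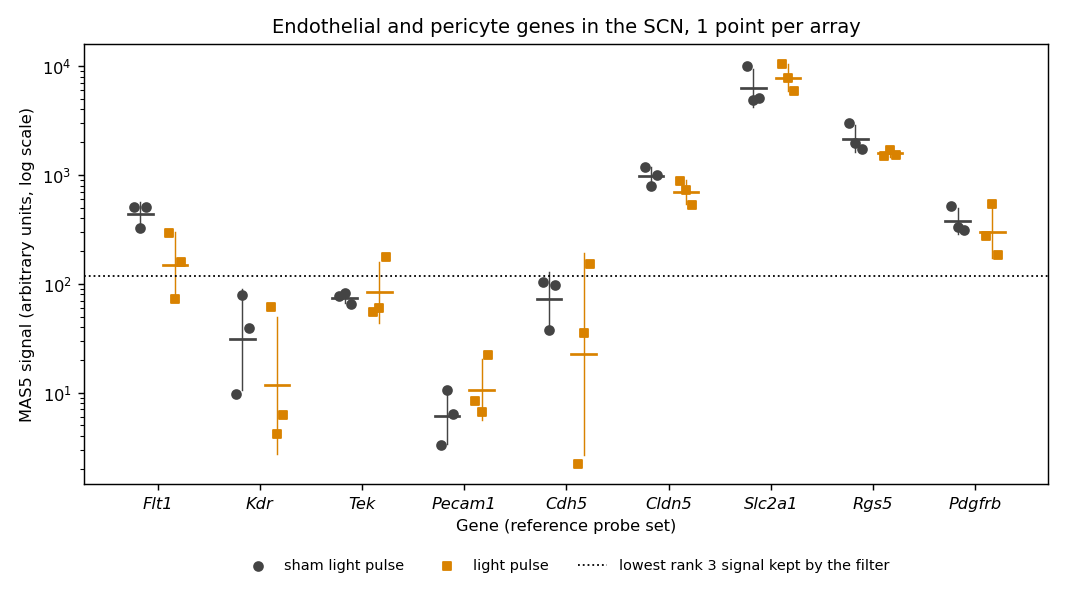
The 9 genes, each by its probe set of highest mean log2 signal, plotted as MAS5 signal (arbitrary units, logarithmic axis), where a point is an array (3 per group), a short horizontal line the group mean and the error bar its SD, both of log2 signals. The points of Kdr and Pecam1 all lie under the dotted line, the lowest rank 3 signal kept (118.2), and the groups of Flt1 and Rgs5 do not overlap.

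Flt1 had lower signals on all 3 light arrays than on all 3 sham arrays at its kept probe set, without passing the adjusted test. On this probe set (1451756_at) the sham signals were 505.4, 325.5 and 511.7, with a mean of 447.5 ± 105.7 (SD, n = 3). The light signals were 291.6, 72.6 and 158.9, with a mean of 174.4 ± 110.3 (SD, n = 3). The lowest value, on light 2, lay below the lowest signal kept, as that of no sham array did. The log2 fold change was -1.55 (standard error 0.48), which is a ratio of light to sham of 0.34 with a 95% confidence interval from 0.17 to 0.70. In limma the adjusted p was 0.960, and the unadjusted p of 0.00636 was the smallest of the 18 probe sets. An array of bulk tissue measures all cells together. Were the difference real, fewer endothelial cells in the captured tissue and less transcript per cell could not be told apart. At the other Flt1 probe sets the groups overlapped. One of them (1419300_at) had signals of 84.0, 101.7 and 151.7 under sham and of 99.3, 70.3 and 90.1 under light. The log2 fold change there was -0.35 (standard error 0.66), from a fit of all 22626 probe sets that is used for every probe set left out by the filter. The remaining one (1454037_a_at) ranged from 2.1 to 121.3, and its log2 fold change was 0.21 (standard error 1.48). Over the 6 arrays the log2 signals of the kept probe set correlated with those of the others at r = 0.69 and r = 0.52, values given as a description.

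Kdr, the other VEGF receptor gene of the set, had low signals on every array. They were 9.7, 79.0 and 39.1 under sham and 60.8, 4.2 and 6.2 under light, so that the groups overlapped. Its log2 fold change of -1.41 had a 95% confidence interval from -4.21 to 1.38. Tek, the angiopoietin receptor gene, had 76.6, 81.6 and 65.8 under sham and 54.8, 60.1 and 176.9 under light. Light 3 was the only array on which Tek reached the lowest signal kept, and its log2 fold change of 0.17 (standard error 0.76) became -0.37 without that array.

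Among the adhesion genes, Pecam1 had signals of 3.3, 10.6 and 6.4 under sham and of 8.3, 6.6 and 22.2 under light. None of these reached the lowest signal kept. Cdh5, which encodes VE-cadherin, had 103.9, 37.5 and 97.1 under sham and 2.2, 35.0 and 150.8 under light at its probe set of higher signal. The light arrays held both the lowest and the highest value, and the log2 fold change of -1.68 had a 95% confidence interval from -4.39 to 1.04 and was 0.01 without light 1. The other Cdh5 probe set ranged from 1.6 to 64.6, and its log2 fold change was -1.01 (standard error 1.35). No direction is drawn for Kdr, Tek, Pecam1 or Cdh5.

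Cldn5, the tight junction gene, was measured above the lowest signal kept on all 6 arrays. Its signals were 1174, 784.3 and 998.0 under sham (mean 985.5 ± 195.2, SD, n = 3). They were 876.4, 733.8 and 535.1 under light (mean 715.1 ± 171.4, SD, n = 3). Light 1 lay above sham 2, so the groups overlapped. The ratio of light to sham was 0.72, with a 95% confidence interval from 0.46 to 1.14 and an adjusted p of 0.960 from limma.

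Slc2a1, the glucose transporter gene, had a higher mean under light, by less than the spread between arrays. At the probe set of highest signal (1434773_a_at) the sham arrays gave 9970, 4846 and 5066 and the light arrays 10465, 7786 and 5879. The highest and the lowest array of this probe set differed 2.16-fold, and both groups held high and low arrays. The ratio of light to sham was 1.25, with a 95% confidence interval from 0.80 to 1.96. Another probe set (1426599_a_at) followed the first over the 6 arrays at r = 0.99 and gave a ratio of 1.33 (0.70 to 2.52). The third (1426600_at) followed it at r = 0.26 and gave 1.12 (0.60 to 2.07), with signals from 134.1 to 291.7. All 3 probe sets had log2 fold changes above 0 and adjusted p values from 0.960 to 0.977 in limma. Their size depended on single arrays. The first (1434773_a_at), at 0.32 on the log2 scale, was 0.11 without light 1, 0.14 without sham 2, 0.17 without sham 3, 0.53 without light 3 and 0.66 without sham 1. The second (1426599_a_at), at 0.41, was 0.04 without light 1, 0.05 without sham 2, 0.26 without sham 3, 0.77 without light 3 and 0.91 without sham 1. The third (1426600_at) was -0.20 without sham 2.

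Rgs5, the pericyte gene, was lower on all 3 light arrays than on all 3 sham arrays at its kept probe set, without passing the adjusted test. The sham signals of this probe set (1417466_at) were 2974, 1957 and 1737, with a mean of 2222.6 ± 659.9 (SD, n = 3). The light signals were 1490, 1710 and 1537, with a mean of 1578.7 ± 115.9 (SD, n = 3). The gap between the groups was small, from 1710 to 1737, and sham 1 stood highest. On the log2 scale light minus sham was -0.46, with a standard error of 0.28 and an adjusted p of 0.960 from limma. This is a ratio of 0.73 with a 95% confidence interval from 0.48 to 1.10, and without sham 1 the log2 difference was -0.23. Of the other 3 Rgs5 probe sets none was kept. Their signals lay between 5.5 and 111.1 on all arrays, and their log2 fold changes were 0.71, -0.32 and -0.81 with standard errors from 0.96 to 1.20.

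Pdgfrb, the pericyte receptor gene, had signals of 517.3, 330.1 and 312.2 under sham and of 273.5, 536.8 and 182.1 under light. The light arrays held both the highest and the lowest value. The ratio of light to sham was 0.79 (95% confidence interval 0.43 to 1.48), and the log2 fold change of -0.33 became 0.03 without light 3. The other Pdgfrb probe set had signals from 4.9 to 66.5, with 66.5 on light 2, where the kept probe set was also highest, and its log2 fold change was 0.48 (standard error 1.24).

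Of the 18 member probe sets, 0 passed limma's test at an adjusted p under 0.05, and 0 passed Cyber-T, the regularized Bayesian test of the study's methods, written anew here. The share called was 0.0677% of the kept and 0.0354% of all probe sets with limma, and 0.0484% and 0.0530% with Cyber-T. The lowest adjusted p of a member was 0.960 with limma and 0.910 with Cyber-T. At an unadjusted p under 0.05 each test gave 1 member probe set, the kept one of Flt1, where limma gave 4.31% of the kept and 4.71% of all probe sets and Cyber-T 4.27% and 5.75%. The light arrays lay below the sham arrays for 2 of the 9 genes, Flt1 and Rgs5, a pattern shown by 3.53% of all genes at the probe set of highest signal. They lay above them for 0 of the 9, against 6.75% of all genes. Of the 9 log2 fold changes 6 were below 0, as were 45.3% of those of all genes. The median over the 9 genes was -0.46, beside 0.07 over all probe sets and 0.00 over the kept ones. Standard errors of the members ran from 0.28 to 0.48 for kept probe sets and from 0.66 to 1.48 for those left out. With 3 arrays per group, an exact permutation test of 1 gene cannot give a p below 0.1.

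**Figure D2:**
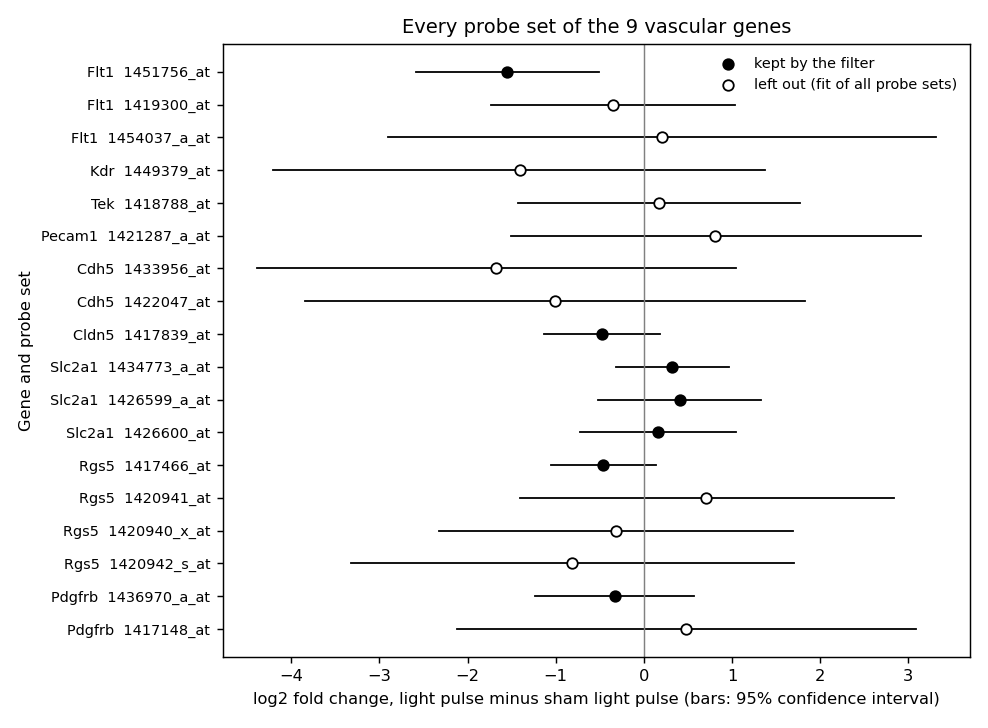
Log2 fold change of light minus sham for the 18 probe sets of the 9 genes, with 95% confidence intervals from limma over 3 arrays per group; filled points were kept by the filter and open points come from the fit of all probe sets. The interval of the kept Flt1 probe set, from -2.58 to -0.51, is the only one that leaves out 0, and no adjusted p was below 0.960.

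The kept members varied between arrays of the same group. Relative to the mean over the 6 arrays, sham 1 stood above the mean for all 7 kept probe sets, by a log2 of 0.23 to 0.98. Light 3 stood below it for 6 of the 7, down to -0.88 for Pdgfrb, the exception being the third Slc2a1 probe set. Among the low signals of the members left out, Tek (176.9), Cdh5 (150.8 at 1433956_at) and Pecam1 (22.2) were highest on light 3. Kdr was not, with 6.2 there. Light 2 held the lowest Flt1 value, at -1.82, together with the highest Pdgfrb value, at 0.68. Across the 6 arrays Cldn5 correlated with Flt1 at r = 0.71, with Rgs5 at r = 0.67 and with Pdgfrb at r = 0.61, while Slc2a1 correlated with these 4 genes at values from -0.06 to 0.37. These coefficients describe 6 arrays that share a scaling and fall into 2 groups.

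**Figure D3:**
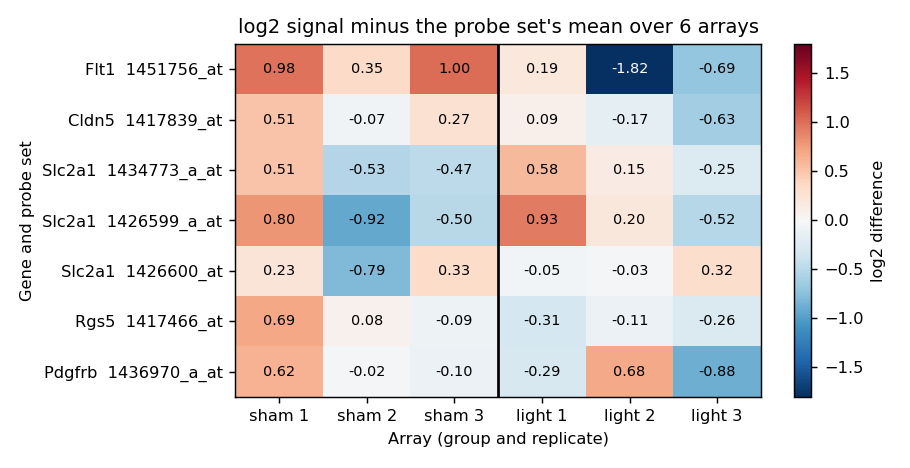
Log2 signal minus the mean over the 6 arrays for the 7 kept probe sets, with arrays in columns (3 sham, 3 light) and the value written in each cell. Sham 1 is above 0 in every row, and light 3 is below 0 in all rows but the third Slc2a1 probe set.

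Light 3 also differed in a marker of another tissue. On that array Ttr, the transthyretin gene and the main marker of choroid plexus, had a signal of 110323, against 63.0 to 295.6 on the others. The 5 measured choroid plexus markers, led by Ttr and Folr1, summed to 217 to 390 under sham and to 332, 140 and 110709 under light. Their part in the vascular signals was not tested. The log2 fold changes without that array were -1.59 for Flt1, -0.44 for Rgs5, -0.28 for Cldn5 and 0.53 for Slc2a1. Connective tissue of vessels and meninges was followed with 8 fibroblast markers led by Ptgds and Igf2. Their sum ran from 4922 to 14216 under sham and from 4604 to 22764 under light. The highest sum lay on light 3, where Ptgds alone gave 21648. Igf2 (717.8) and Lum (163.7) were also highest on light 3. Col1a1 (8.3), Col1a2 (64.4) and Col3a1 (9.3) were lowest there, and Dcn and Slc6a13 were neither. The sum therefore follows Ptgds and does not speak for the collagen genes. Which cells gave the Ptgds signal was not tested. Of the 8, Col1a1 and Col1a2, which encode the chains of type I collagen, were lower on all light arrays. Col1a1 was left out by the filter, with signals from 8.3 to 45.4. Over the 8 markers 5 log2 fold changes were below 0 and 3 above, namely Igf2 (1.24), Lum (0.33) and Ptgds (0.02). Col1a2 had 292.5, 282.8 and 254.1 under sham and 158.2, 71.6 and 64.4 under light, with a log2 difference of -1.62 (standard error 0.50, adjusted p = 0.960 from limma). Its part in the Flt1 and Rgs5 values was not tested.

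Markers of other cells in the tissue gave sums that overlapped between the groups in every list. A sum is carried mainly by the genes named as leading it, so its overlap says little about the other markers. The 8 astrocyte markers, led by Gja1 and Aldoc, summed to 36965 to 42413 under sham and 39482 to 41955 under light, and the 6 oligodendrocyte markers, led by Mbp and Cnp, to 28211 to 53348 and 36758 to 51278. The 10 markers of microglia and perivascular macrophages, led by Csf1r and C1qb, summed to 5653 to 6634 and 5350 to 6332. Red blood cells were read by 4 genes, led by Hbb-b2 and Slc4a1, with sums of 230 to 357 and 246 to 411, and of these the globin gene Hba-a1 had signals of 34.7 or less. The 2 ependymal markers, Rsph1 and Foxj1, summed to 261 to 400 and 203 to 269. The 8 SCN neuron markers are those with which the study checked its captured tissue, after locating the SCN by stained nuclei. All 8 had kept probe sets, with sums of 60788 to 72053 and 71608 to 94253 led by Vip and Gad1. Of the 51 measured markers of other cells, 5 were higher on all light arrays (Vip, Grp, Itgam, Mrc1 and Kl), or 9.80% against 6.75% of all genes. Itgam, Mrc1 and Kl were left out by the filter for low signals, with highest values of 43.4, 115.7 and 72.7. Lower on all light arrays were 3 (Rsph1, Col1a1 and Col1a2), or 5.88% against 3.53% of all genes. Their part in the vascular values was not tested. No marker was listed at 0, the lowest signal being 1.7.

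Beyond the 9 genes, 100 other vascular genes had been listed in 7 groups by role, and 92 of them were on the array. None of the 92 passed limma's test in either direction, and 4 had an unadjusted p under 0.05, namely Gja4, Acta2, Hspg2 and Sparcl1. Cyber-T also called 0 of them, with 7 at an unadjusted p under 0.05. These are 4.35% with limma, against 4.31% of the kept and 4.71% of all probe sets, and 7.61% with Cyber-T, against 4.27% and 5.75%. The filter kept 37 of the 92, or 40.2%, against 54.3% of all genes. The light arrays lay below the sham arrays for 3 (Tjp1, Tagln and Sparcl1) and above them for 7 (F11r, Gja4, Klf2, Cd93, Des, Foxc1 and Hspg2). These are 3.26% and 7.61% of the 92, near the 3.53% and 6.75% of all genes. Tagln was left out by the filter for its low signals, as were all of the 7 except Hspg2. The median log2 fold change was 0.06, and 42 of the 92 values were below 0.

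Of the 8 other ligand and receptor genes of the VEGF system, 5 were kept. Nrp1, which encodes a co-receptor of VEGF, had signals from 777.7 to 1730.5 and a log2 difference of -0.45 (standard error 0.30). Vegfa, the ligand of Flt1 and Kdr, had 187.1, 171.1 and 249.0 under sham and 239.5, 61.9 and 177.7 under light, so the groups overlapped. The 4 measured genes of the angiopoietin system, which signals through Tek, were all left out by the filter. The endothelial phosphatase gene Ptprb had signals from 33.4 to 148.2, and the ligand gene Angpt2 from 4.6 to 162.2.

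Of 13 junction and adhesion genes, 4 were kept. Tjp1, which encodes the tight junction protein ZO-1 and is not confined to endothelium, had 3561, 2717 and 2897 under sham and 2697, 1891 and 2250 under light. All its light arrays lay below its sham arrays, with a log2 difference of -0.43 (standard error 0.25, adjusted p = 0.960 from limma). Vcam1, an adhesion molecule for leukocytes, had a log2 difference of 0.27 (standard error 0.34). Gja4, which encodes the gap junction protein connexin 37, had signals of 4.8 to 40.2 under sham and 50.4 to 134.6 under light, most of them under the lowest signal kept.

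Of 11 genes of blood-brain barrier transport, 6 were kept. Slco1a4, an organic anion transporter of brain endothelium, had 2171, 1942 and 1471 under sham and 1922, 1409 and 1502 under light, with a log2 difference of -0.20 (standard error 0.27). Abcb1a, the gene of the efflux pump P-glycoprotein, ranged from 186.6 to 395.4 over all arrays. It was chosen for its role after its values had been seen. Tfrc, the transferrin receptor gene, had a log2 difference of 0.34 (standard error 0.30). Of 24 genes of endothelial identity and signalling, 8 were kept, with Itm2a at a log2 difference of 0.03 (standard error 0.31) and the endothelin-converting enzyme gene Ece1 at 0.53 (standard error 0.42).

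Of 20 pericyte and smooth muscle genes, 7 were kept. Pdgfa, a platelet-derived growth factor gene, had a log2 difference of -0.54 (standard error 0.30). Notch3, a receptor of vascular smooth muscle and pericytes, had 0.79 (standard error 0.38, adjusted p = 0.960 from limma). Acta2, the smooth muscle actin gene, had signals of 940.0, 294.1 and 416.4 under sham and 287.9, 340.9 and 32.6 under light, the lowest again on light 3. Of 12 basement membrane genes, 7 were kept, and they differed in direction. Sparcl1, also an astrocyte gene, was lower on all light arrays, with a log2 difference of -0.58 (standard error 0.24). Hspg2, which encodes perlecan, was higher on all of them, with 0.74 (standard error 0.33). Sparc had -0.33 (standard error 0.28).

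**Figure D4:**
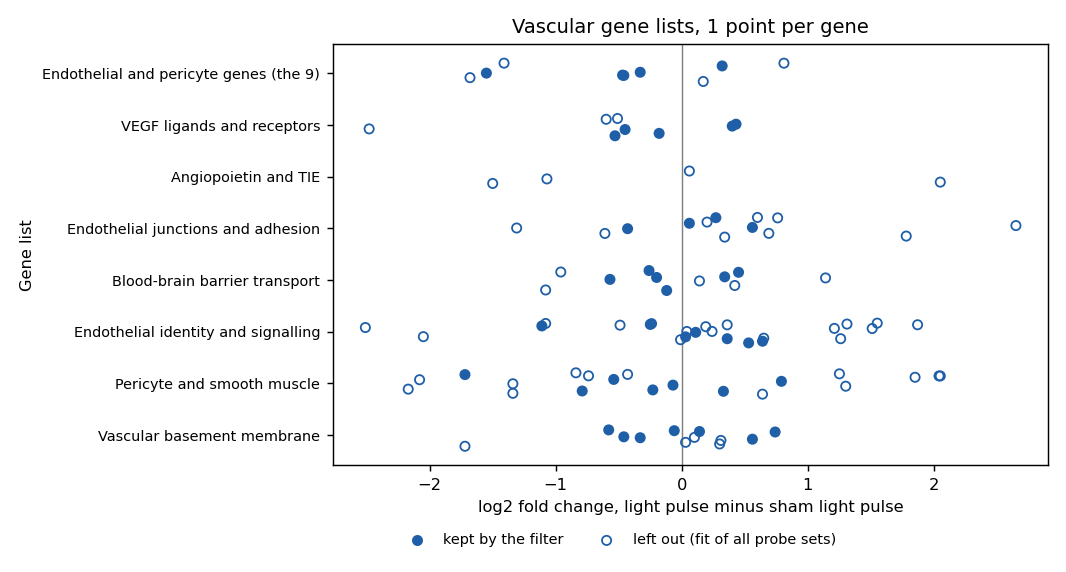
Log2 fold change of light minus sham for the 9 genes and for 92 other vascular genes in 7 lists, with 1 point per gene at its probe set of highest mean signal; filled points were kept by the filter and open points come from the fit of all probe sets, and vertical scatter within a list has no meaning. Points lie on both sides of 0 in every list, and none passed the adjusted test.

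The pattern of the kept members over the 6 arrays, taken as the mean of the 5 centred log2 signals, was set beside 6727 other genes with a kept probe set. The genes most like it were Pak3 (r = 0.99), Tmub2 (r = 0.98), Sarnp (r = 0.97), Trim59 (r = 0.96) and Sacm1l (r = 0.96). Of 37 other vascular genes, 22 had r above 0 (median r 0.23, beside a median of -0.00 over all genes), and 7 stood in the top 10 percent. The nearest were Rgs4 at rank 49, Acta2 at rank 58 and Tjp1 at rank 60, and Rgs4 is also a gene of neurons. The members themselves entered the pattern, with r from 0.44 for Slc2a1 to 0.96 for Cldn5. All these coefficients are a description over 6 arrays that share a scaling.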

How the data were processed

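Laser-captured SCN from light pulse and sham mice was hybridized to Affymetrix 430A 2.0 arrays, 3 per group. Of each pool of 3 mice, 1 ng of RNA went through linear amplification in 2 rounds. The deposited values are signal intensity on a linear scale, which the authors computed with MAS5. Trimmed means of the arrays ran from 492.0 to 496.4. The platform's annotation gave 1 symbol to 20380 probe sets, several to 691 and none to 1555, and names were used where there was 1. Groups came from the sample titles.

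The log2 of the signal was compared between groups by limma 3.58.1 (R 4.3.3), using lmFit and a two-sided eBayes test with trend, and p-values were adjusted by Benjamini-Hochberg at 0.05. The present calls behind the study's filter were not used here, and in their place the 10340 probe sets of highest rank 3 signal, the number that the study's present calls had left, were fitted. Probe sets left out take their values from a fit of all 22626. The study's Cyber-T test was written anew (prior weight 10), and both tests were tested on simulated data. A gene with several probe sets is represented by the one of highest mean log2 signal.

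The 9 genes and all lists were chosen with earlier results of these data known. The genes named are the 9, of each other vascular list the called genes or else the 2 of highest mean signal, the 5 most like the members' pattern, and of each list of other cells the 2 of highest mean signal and any marker high on 1 array alone. The genes and markers with an unadjusted p under 0.05 or groups without overlap, with Abcb1a and Hba-a1, were named after their values were seen. Alternatives were quantile normalization, arrays set to a common 75th percentile, 50 added before the log2, no filter, 5000 probe sets kept, eBayes without trend, Cyber-T, the replicate number as a block, each array left out, probe sets averaged per gene, and no probe sets with shared targets. The labels do not state that the pools came from different mice, so the p-values describe differences among pools. Precision is limited by having 3 arrays a group.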

Additional observations from a re-analysis of the deposited data

How the results depend on the processing

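The number of genes called stayed at 0 under all 16 alternatives, of which the one without shared-target probe sets left 8 of the 9 genes. Over the 14 alternatives that give a value for each member probe set, the lowest adjusted p from limma or Cyber-T was 0.518, for the kept probe set of Flt1. The median log2 fold change of the 9 genes ran from -0.53 to -0.22, and with an array left out from -0.53 to -0.23, beside -0.46; it was -0.22 with the probe sets of a gene averaged and -0.23 without sham replicate 1. Over all kept probe sets limma called 7 higher, and 4 without the intensity trend, 5 to 8 with an array left out and none lower under any of these settings.

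Of 252 recomputed values of member probe sets 240 kept their sign and 12 changed it. Another filter or none, eBayes without trend, Cyber-T and the replicate block leave a log2 fold change as it is. Values from these settings kept their sign by construction, so the 240 overstates how stable the signs were. The changes of sign arose with quantile normalization or with an array left out, and their cause was not tested. With quantile normalization Tek was at -0.01. With an array left out, the log2 fold change ran from -0.37 to 0.47 for Tek, from -2.59 to 0.08 for Cdh5 (1422047_at) and from -3.04 to 0.01 for Cdh5 (1433956_at). It ran from -0.80 to 2.13 for Flt1 (1454037_a_at), from -0.72 to 1.17 for Pdgfrb (1417148_at) and from -0.75 to 0.03 for Pdgfrb (1436970_a_at). It ran from -0.91 to 0.19 for Rgs5 (1420940_x_at), from -0.21 to 1.48 for Rgs5 (1420941_at) and from -0.20 to 0.36 for Slc2a1 (1426600_at). The kept probe set of Flt1 ran from -2.03 to -1.03 and that of Rgs5 from -0.61 to -0.23.

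Arrays of equal replicate number did not deviate together (r of 0.10, -0.19 and -0.13 for numbers 1, 2 and 3). Arrays of unequal number gave r from -0.11 to 0.20. Whether equal numbers shared a processing step cannot be told from these values, and the labels state no pairing. With the replicate number as a block 6 probe sets were called and 0 of the 9 genes. Low signals limit Kdr, Tek, Pecam1 and Cdh5, whose intervals reach ratios of light to sham from 0.05 to 2.60 for Kdr and from 0.35 to 8.81 for Pecam1.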
